A study of Mus musculus with 8 samples.

Results

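The genes described here are 46 genes of mitosis and the G2/M transition, given as a list of symbols and found among the 55335 gene identifiers of the deposited table. All 46 are annotated as protein-coding in GRCm38. They were measured by RNA sequencing in MC3T3-E1, a pre-osteoblast cell line derived from mouse calvaria. Cells were cultured for 3 days on TABS, a bone scaffold that the series title names Trio-Active (n = 4 libraries), or on HA, hydroxyapatite with added magnesium (n = 4 libraries). The sources used here do not state what TABS consists of, and no scaffold-free library was analysed here, so every difference is TABS relative to HA. The labels do not state whether replicates were cultured separately, and the p-values therefore reflect the spread between libraries, possibly technical. The comparison asks how the proliferative state of the cells differed between the scaffolds.

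A dividing cell enters mitosis when CDK1, bound to cyclin A or B and freed of inhibitory phosphate by CDC25 phosphatases, becomes active. Polo and Aurora kinases then build the spindle, the checkpoint proteins hold anaphase until every kinetochore is attached, and the anaphase-promoting complex (APC/C) destroys securin and the cyclins. Most of these genes are transcribed late in the cell cycle, when the MuvB complex with B-MYB and FOXM1 acts on promoters that carry a cell cycle homology region (CHR), often near CCAAT boxes bound by NF-Y. In osteoblast cultures, division of pre-osteoblasts comes before matrix deposition and mineralisation.

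The value deposited for each gene and library was FPKM, fragments per kilobase of transcript scaled to the library's fragments. The FPKM values of all genes added up to between 304893 and 307263 in TABS and between 312629 and 317439 in HA, and read totals were not in the table, so the depth is unknown. All 8 markers of the osteoblast lineage reached 1 FPKM in some library, Alpl in HA libraries only. Between the scaffolds 5 of the 8 differed, beside 7.38% of all genes tested (limma adjusted p under 0.05). Alpl, Col1a1, Ibsp and Sp7 were lower and Spp1 was higher in TABS. Of 6 macrophage markers Lyz2 alone reached 1 FPKM, with Itgam at 0 everywhere, and of 4 endothelial markers none did. Fabp4 was the 1 of 4 adipocyte markers above that level, and Col2a1, higher in TABS, and Sox9 were the 2 of 4 chondrocyte markers. Lyz2 was lower in TABS, at 10.7 to 15.9 FPKM, against 17.6 to 19.8 FPKM in HA. It made up nearly all of the summed macrophage markers, which ran from 11.2 to 16.3 FPKM in TABS and from 17.9 to 20.1 in HA. Cd68, the next highest, overlapped between the groups (0.173 to 0.346 FPKM in TABS, 0.190 to 0.249 in HA). The part of these cell type markers in the results below was not tested. The library names carry the letters H for TABS and L for HA, and no gene in the table shows which scaffold a library came from.

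Promoter sequences were searched for motifs, apart from the members' expression. RefSeq's table for GRCm38.p6, which holds 250 bases before to 50 bases after each annotated start, had entries for 39 of the 46 members. Aurkb, Ccna2, Cdc25c, Foxm1, Incenp, Kif20a and Tpx2 were not matched. A CHR, searched as TTTGAA or TTCGAA on both strands, was found in 30 of the 39 (76.9%), against 21.7% of all 27025 genes in that table and 15.99% of the 8104 protein-coding genes that were tested for expression here and had an entry. A CCAAT box, searched as CCAAT on both strands, was found in 74.4% of the members and 41.1% of all genes, but also in 65.2% of 23 genes of DNA replication and the G1/S transition and 56.7% of 97 genes of other mitotic lists, described at the end. In those lists a CHR was found in 21.7% and 49.5%. E2F sites (TTCCCGC or TTCGCGC or TTGCCGC or TTGGCGC, both strands), the element typical of genes of DNA replication, were found in 15.4% of the members, against 65.2% of the G1/S genes, 33.0% of the other mitotic lists, 20.4% of the tested protein-coding genes and 10.9% of all genes. None of these motifs contains another. In the 250 bases upstream alone, a CHR was found in 14 members (35.9%), against 36.1% of the other mitotic lists and 19.6% of all genes, and in the remaining members with a CHR it lay at or after the annotated start.

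The 6 promoters printed here are those of the members with the smallest p in the comparison below among members with a CHR upstream of the start. Each is 200 bases read 5′ to 3′ on the gene's strand and ends at the base before RefSeq's start, with CHR and CCAAT motifs of either strand in capitals. They lie at chr8:22185820-22186019 (Ckap2, minus strand), chr2:118598011-118598210 (Bub1b, plus), chr2:129297213-129297412 (Ckap2l, minus), chr11:99024190-99024389 (Top2a, minus), chr7:135716380-135716579 (Mki67, minus) and chr19:37376182-37376381 (Kif11, plus).
Ckap2: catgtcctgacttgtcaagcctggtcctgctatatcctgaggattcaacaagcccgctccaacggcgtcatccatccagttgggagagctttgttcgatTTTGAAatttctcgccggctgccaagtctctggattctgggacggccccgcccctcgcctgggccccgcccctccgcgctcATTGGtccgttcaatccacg
Bub1b: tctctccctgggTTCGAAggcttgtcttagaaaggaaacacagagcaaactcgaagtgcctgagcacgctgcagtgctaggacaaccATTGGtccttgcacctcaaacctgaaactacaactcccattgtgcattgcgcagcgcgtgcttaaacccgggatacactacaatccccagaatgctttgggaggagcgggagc
Ckap2l: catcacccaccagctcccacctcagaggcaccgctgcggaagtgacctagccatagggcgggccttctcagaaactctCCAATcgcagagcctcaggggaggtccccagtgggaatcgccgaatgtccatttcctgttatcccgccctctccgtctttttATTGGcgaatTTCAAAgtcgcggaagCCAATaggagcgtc
Top2a: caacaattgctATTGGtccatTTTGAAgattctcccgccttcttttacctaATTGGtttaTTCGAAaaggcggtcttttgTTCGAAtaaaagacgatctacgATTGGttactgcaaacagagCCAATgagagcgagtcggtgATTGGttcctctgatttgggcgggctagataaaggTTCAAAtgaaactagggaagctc
Mki67: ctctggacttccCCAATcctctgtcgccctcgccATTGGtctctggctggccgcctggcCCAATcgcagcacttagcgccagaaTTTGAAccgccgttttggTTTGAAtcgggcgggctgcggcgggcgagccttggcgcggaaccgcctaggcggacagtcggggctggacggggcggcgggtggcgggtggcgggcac
Kif11: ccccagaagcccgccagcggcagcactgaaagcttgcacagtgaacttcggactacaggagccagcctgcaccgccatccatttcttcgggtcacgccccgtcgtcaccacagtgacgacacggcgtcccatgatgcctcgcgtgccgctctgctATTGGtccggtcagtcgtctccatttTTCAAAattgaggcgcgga

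In Kif11 a reversed CCAAT box at -45 stood ahead of a reversed CHR at -19, and in Ckap2l a reversed CCAAT box at -40 stood ahead of a reversed CHR at -30. Positions are those of a match's first base on the gene's strand, with -1 just before the start. Mki67 had 3 CCAAT boxes at -188, -166 and -141 ahead of CHRs at -116 and -98, and Top2a had 4 CHRs between -179 and -23. A CCAAT box starting 25 to 40 bases upstream of a CHR, a spacing chosen after these positions were seen, was found in 13 of the 39 members (33.3%), in 7.22% of the other mitotic lists and in 0.803% of all genes. Hmmr had 5 CCAAT boxes upstream and its CHR at position 9 after the start. A match is a run of letters in this window, and binding was not measured.

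**Figure D1:**
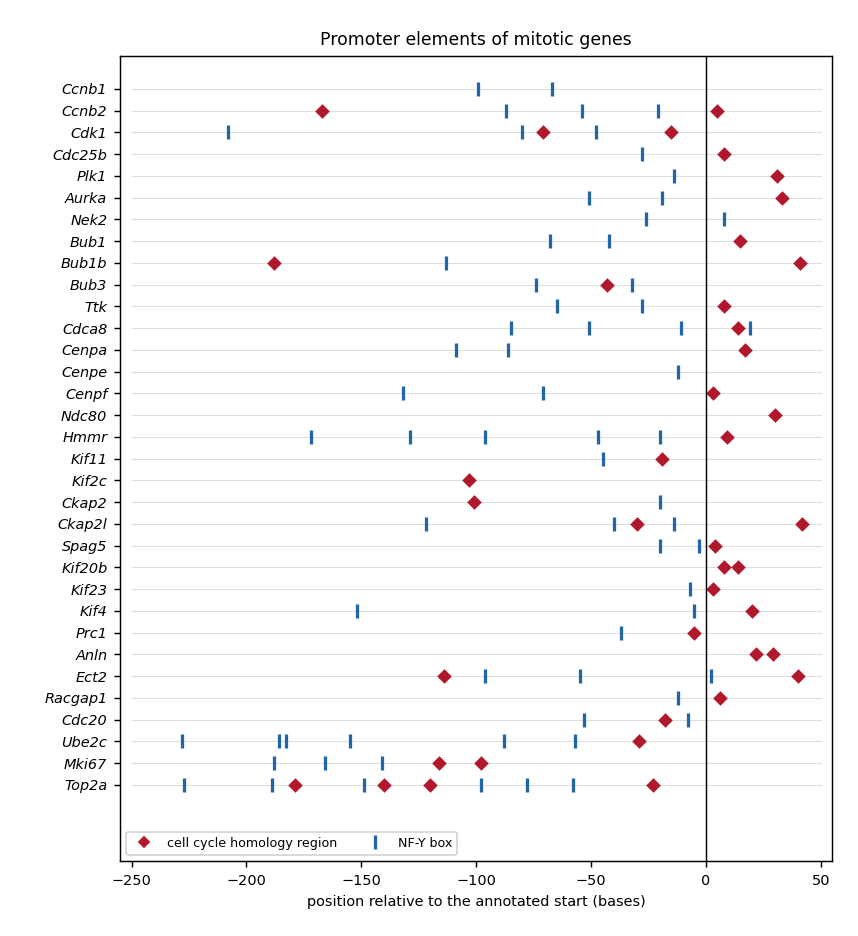
Positions of CHR motifs (red diamonds) and CCAAT boxes, the motif of NF-Y (blue bars), on either strand in the 33 mitotic genes that had either motif, in bases from RefSeq's annotated start (line at 0). Rows are genes, and where RefSeq gave several starts the first is drawn. Most diamonds lie within 50 bases of the start, with the blue bars mostly to their left.

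The summed level of mitotic transcripts was nearly the same in cells on TABS and on HA. Summed over the 46 genes, TABS libraries held 352, 362, 372 and 386 FPKM, and HA libraries held 356, 351, 384 and 365 FPKM. The groups overlapped throughout, with means of 368 ± 14.7 FPKM in TABS and 364 ± 14.7 FPKM in HA (n = 4 each, SD), a ratio of 1.01 ± 0.057. The ± of this ratio carries the SDs of the libraries and is not a standard error of the ratio. Among the groups by role given below, the same ratio ran from 0.875 ± 0.076 for centromere and kinetochore to 1.06 ± 0.0757 for the mitotic kinases. The members took 0.120% of all FPKM in TABS and 0.116% in HA. In bulk RNA, fewer cells in mitosis and less of these transcripts per cell cannot be told apart.

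Gene by gene, 44 of the 46 members reached 1 FPKM in at least 4 of the 8 libraries and were tested together with all 11280 such genes (limma on log2(FPKM + 1), Benjamini-Hochberg adjusted p under 0.05). None of the 44 was higher in TABS and 2 were lower, Ckap2 and Hmmr, while 42 did not pass. Over all genes tested, 7.38% passed, 4.49% higher (506 genes) and 2.9% lower (327 genes) in TABS. After rescaling to TPM 10.2% passed, 8.11% higher (915 genes) and 2.12% lower (239 genes), and after GC and length correction 8.61% passed. The 2 members lower of 44 stand beside those 2.9%, and the 2 called in either direction beside the 7.38%, and neither difference was tested. The log2 differences, TABS minus HA, were positive in 21 members and negative in 23, with a median of -0.003, against 0.006 over all genes tested. Unadjusted p was under 0.05 in 7 of the 44 members, against 24.1% of all genes tested. The libraries of the groups did not overlap in 2 members that were higher in TABS, Cdc25b and Bub1b, and in 3 that were lower, Ckap2, Hmmr and Bub1, against 10.8% and 7.15% of all genes tested.

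The intervals show how large a difference these libraries leave room for. The 95% interval of the log2 difference included 0 in 37 of the 44 members, and its median half-width was 0.14. It lay within 0.5 on either side of 0 in 43 members, all but Foxm1, and within 0.3 in 34. These limits hold on the scale of log2(FPKM + 1), which understates the differences, and so the intervals, of low members. With a pseudocount of 0.1 the differences of Cenpe, Kif20b and Cdc25c were -0.41, -0.32 and 0.15, against -0.26, -0.22 and 0.10 here. The differences themselves ran from -0.26 (Cenpe) to 0.19 (Cdc25b), and the ratio of the group means, in FPKM, from 0.735 to 1.15.

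**Figure D2:**
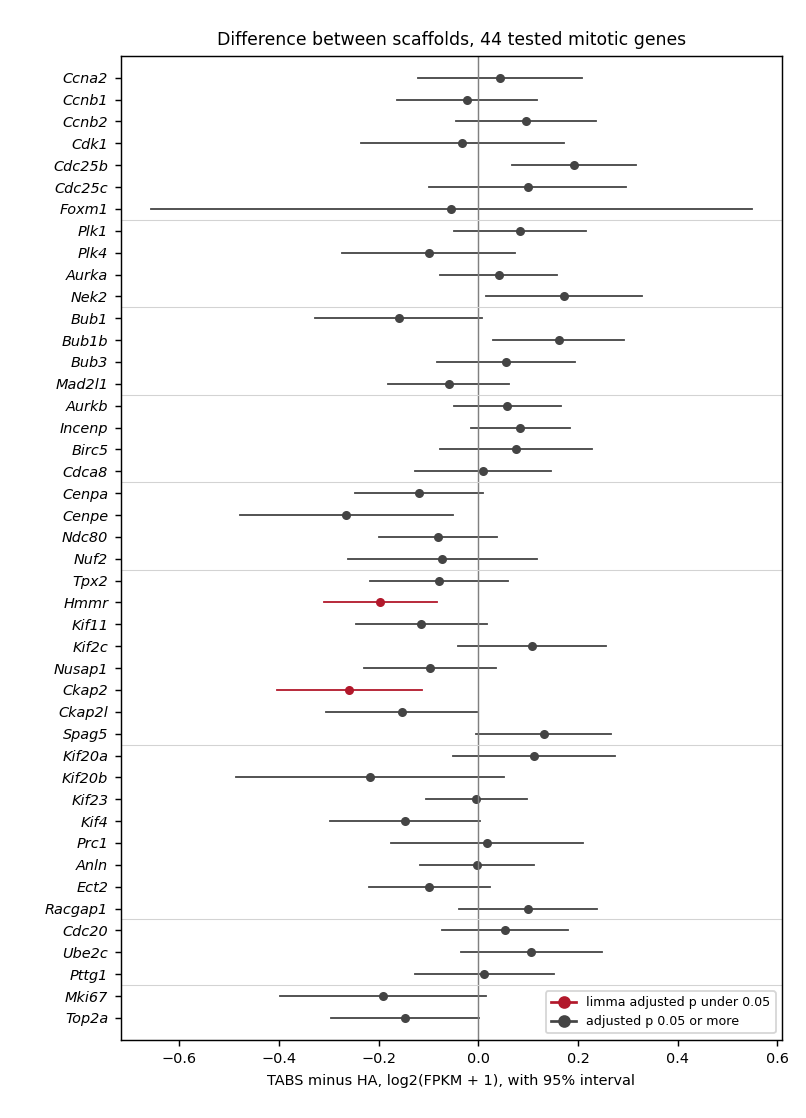
Difference between TABS and HA in log2(FPKM + 1) for the 44 tested members (points) with the 95% interval of the limma fit (bars), grouped by role in the order of the text. Ckap2 and Hmmr, in red, are the 2 with an adjusted p under 0.05, and 37 of the 44 intervals include 0.

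Levels differed far more between members than between scaffolds. The median member averaged 5.41 FPKM in TABS and 5.71 FPKM in HA, and the median of all genes tested, over the 8 libraries, was 6.97 FPKM. Of the 46 members, 18 averaged over 10 FPKM and 8 under 2 FPKM over the 8 libraries. FPKM is per length, but the lengths and annotation behind the values are not stated, so levels of different genes compare only roughly. By these values, partners in 1 complex were far apart. Racgap1, which with Kif23 makes up the centralspindlin complex of the dividing cell's midzone, averaged 14.6 FPKM in TABS and 13.6 FPKM in HA, while Kif23 averaged 1.88 in TABS and 1.89 in HA. Ccnb2 averaged 20.7 FPKM in TABS and 19.3 in HA, against 7.61 and 7.74 FPKM for Ccnb1, the other B-type cyclin.

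Of the 7 genes of entry into mitosis, none passed the test, with 4 positive and 3 negative differences (median 0.04). Ccnb2, the most abundant of them, had 18.9, 21.3, 21.5 and 21.2 FPKM in TABS, against 17.9, 18.5, 21.3 and 19.7 FPKM in HA. The groups overlapped, and the log2 difference was 0.10 ± 0.06 (SE, limma adjusted p = 0.383). Cdc25b, a phosphatase that activates CDK1 (chromosome 2, 131186949 to 131198497), had 13.7, 12.9, 14.2 and 14.8 FPKM in TABS, against 12.5, 12.01, 12.5 and 11.1 FPKM in HA. Every TABS library was above every HA library, yet the difference of 0.19 ± 0.05 missed the threshold (SE, limma adjusted p = 0.0677). After rescaling of the FPKM values to TPM, which raised the median difference of all genes tested to 0.04, Cdc25b passed (0.24, limma adjusted p = 0.0279) as the only member then higher, against 8.11% of all genes tested.

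Cdk1, the mitotic kinase itself, averaged 14.4 ± 1.56 FPKM in TABS and 14.8 ± 1.59 in HA (mean ± SD of 4 libraries each). Its partner Ccna2 averaged 14.3 ± 1.24 FPKM in TABS and 13.9 ± 1.13 in HA, and Cdc25c, another CDC25 phosphatase, 1.70 ± 0.273 in TABS and 1.51 ± 0.212 in HA. Foxm1, the transcription factor of late cell cycle genes, had 6.24, 12.7, 7.10 and 14.3 FPKM in TABS, against 11.7, 6.47, 10.4 and 12.1 FPKM in HA. Both groups held low and high libraries, and its coefficient of variation within groups, 33.2%, was the highest of the members, the next being 21.9%. That spread was above that of 97.8% of all genes tested, and it leaves an interval of -0.66 to 0.55 for the log2 difference. The summed level of the other 45 members was 358 ± 12.6 FPKM in TABS and 354 ± 14 in HA.

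None of the 4 mitotic kinases passed, with 3 positive differences and 1 negative (median 0.06). Plk1, the polo kinase of spindle and centrosome, had 20.4, 19.8, 22.1 and 22.8 FPKM in TABS, against 20.5, 20.8, 20.5 and 18.3 FPKM in HA. The groups overlapped (log2 difference 0.08 ± 0.06 SE, limma adjusted p = 0.416). Nek2, which separates the centrosomes, had 4.44, 4.74, 5.25 and 4.998 FPKM in TABS, against 3.804, 4.02, 4.81 and 4.20 FPKM in HA. HA 3 lay within the range of TABS, and the difference of 0.17 ± 0.07 did not pass (SE, limma adjusted p = 0.168). Aurka, the Aurora kinase of spindle poles, averaged 12.03 ± 0.669 FPKM in TABS and 11.7 ± 0.586 in HA, and Plk4, which starts centriole duplication, 1.63 ± 0.274 in TABS and 1.804 ± 0.117 in HA (mean ± SD of 4 libraries each).

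The spindle checkpoint genes gave 2 positive and 2 negative differences, and none of the 4 tested passed (median -0.002). Bub1b, which encodes the checkpoint protein BubR1 (chromosome 2, 118598211 to 118641591), had 12.6, 13.4, 12.8 and 13.02 FPKM in TABS, against 10.2, 11.4, 12.3 and 12.1 FPKM in HA. All TABS libraries were above all HA libraries (log2 difference 0.16 ± 0.06 SE, limma adjusted p = 0.129). Its paralogue Bub1, a kinase of the kinetochore, lay the other way, at 2.36, 2.17, 2.33 and 2.37 FPKM in TABS, against 2.37, 2.45, 2.76 and 3.25 FPKM in HA. The highest TABS and the lowest HA library were almost equal, though the groups did not overlap, and the difference was -0.16 ± 0.07 (SE, limma adjusted p = 0.228).

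Bub3, the partner of both, had 16.3, 15.3, 15.3 and 16.1 FPKM in TABS, against 15.6, 15.6, 16.2 and 13.3 FPKM in HA. These groups overlapped (0.06 ± 0.06 SE, limma adjusted p = 0.626). Mad2l1, the inhibitor of Cdc20, averaged 4.33 ± 0.136 FPKM in TABS and 4.56 ± 0.351 in HA (mean ± SD of 4 libraries each). Ttk, the checkpoint kinase Mps1, stayed below the limit for testing, at 0.686, 0.777, 0.711 and 0.692 FPKM in TABS, against 0.930, 0.764, 0.855 and 0.844 FPKM in HA.

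All 4 genes of the chromosomal passenger complex, which corrects wrong attachments and acts in cytokinesis, had positive differences, between 0.01 and 0.08, and none passed. After the correction for GC content and length described below, these differences ran from -0.01 (Cdca8) to 0.07 (Birc5). Incenp, the scaffold of the complex, had 11.2, 10.99, 11.5 and 11.9 FPKM in TABS, against 10.9, 10.4, 11.2 and 10.4 FPKM in HA (log2 difference 0.08 ± 0.04 SE, limma adjusted p = 0.280). Birc5, which encodes survivin, had 11.8, 12.9, 13.6 and 14.1 FPKM in TABS, against 12.9, 11.9, 13.3 and 11.3 FPKM in HA (0.08 ± 0.07 SE, limma adjusted p = 0.535). Both genes overlapped between the groups. The kinase gene Aurkb averaged 5.86 ± 0.0972 FPKM in TABS and 5.59 ± 0.347 in HA, and Cdca8, which encodes borealin, 3.10 ± 0.122 in TABS and 3.08 ± 0.315 in HA (mean ± SD of 4 libraries each).

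All 4 tested genes of centromere and kinetochore had negative differences in FPKM as deposited, with a median of -0.10, and none passed. After the correction for GC content and length described below, Cenpa stood at -0.09, Ndc80 at -0.02 and Nuf2 at 0.01. Cenpe, a kinesin that moves chromosomes to the spindle equator, had 1.36, 1.57, 1.12 and 1.21 FPKM in TABS, against 1.53, 1.49, 1.93 and 2.20 FPKM in HA. TABS 2 overlapped with HA 1 and HA 2, and the difference of -0.26 ± 0.09 did not pass (SE, limma adjusted p = 0.127). It did pass after the correction for GC content and length described below, at -0.23 (limma adjusted p = 0.0461), as the 1 member then lower, against 4.04% of all genes tested. Cenpa, the histone variant that marks centromeres, had 4.51, 4.09, 4.59 and 4.52 FPKM in TABS, against 4.51, 5.41, 4.80 and 4.87 FPKM in HA (-0.12 ± 0.06 SE, limma adjusted p = 0.241).

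HA 1 lay within the TABS range of Cenpa. Ndc80 and Nuf2, partners in the complex that grips microtubules, averaged 1.03 ± 0.0728 and 2.60 ± 0.348 FPKM in TABS, against 1.15 ± 0.0874 and 2.78 ± 0.304 FPKM in HA (mean ± SD of 4 libraries each). Cenpf, a large outer kinetochore protein, was not tested, at 0.867, 0.945, 0.689 and 0.779 FPKM in TABS, against 0.926, 0.865, 0.993 and 1.37 FPKM in HA.

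Both members that passed the test belong to the 8 genes of spindle proteins and motors, of which 6 did not pass. Their summed level was 48.7, 48.6, 50.6 and 51.3 FPKM in TABS, against 51.5, 52.1, 57.3 and 55.6 FPKM in HA, without overlap, a ratio of 0.920 ± 0.0538 (from the SDs of the libraries). As a share of all FPKM the groups did overlap, at 0.0158%, 0.0159%, 0.0166% and 0.0167% in TABS, against 0.0162%, 0.0167%, 0.0181% and 0.0178% in HA. Ckap2, a spindle protein that binds microtubules (chromosome 8, 22168160 to 22185819), had 8.39, 8.39, 10.03 and 9.83 FPKM in TABS, against 11.6, 10.6, 11.1 and 11.2 FPKM in HA. TABS 1 and TABS 2 were lowest and all TABS libraries were below all HA libraries. It fell by 0.26 on the log2 scale (SE 0.06, limma adjusted p = 0.0437), with means of 9.16 ± 0.892 FPKM in TABS and 11.1 ± 0.393 in HA (mean ± SD of 4 libraries each).

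Hmmr, which encodes a hyaluronan receptor that acts inside the cell as a spindle protein (chromosome 11, 40701395 to 40733422), had 2.94, 2.84, 2.71 and 2.78 FPKM in TABS, against 3.20, 3.18, 3.51 and 3.62 FPKM in HA. The groups did not overlap, and it fell by 0.20 (SE 0.05, limma adjusted p = 0.0480). Both calls stood close to the threshold. Hmmr lost its call when any 1 of the 8 libraries was left out (limma adjusted p 0.051 to 0.121), and Ckap2 lost it without any library other than TABS 3 (0.0545 to 0.107, against 0.0423 without TABS 3). Neither passed without the filter on low FPKM (limma adjusted p = 0.102 for Ckap2 and 0.0973 for Hmmr), after rescaling to TPM (0.0617 and 0.0697) or after GC and length correction (0.224 and 0.0673).

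The other 6 spindle genes included 2 positive and 4 negative differences. Tpx2, which activates Aurora A, had 12.2, 12.1, 12.5 and 12.98 FPKM in TABS, against 11.6, 13.2, 14.5 and 13.6 FPKM in HA, which overlapped (-0.08 ± 0.06 SE, limma adjusted p = 0.475). Ckap2l, a relative of Ckap2, averaged 8.36 ± 0.493 FPKM in TABS and 9.43 ± 0.910 in HA, and Nusap1, a microtubule bundling protein, 4.11 ± 0.165 in TABS and 4.47 ± 0.397 in HA (mean ± SD of 4 libraries each). Kif11, the motor that pushes spindle poles apart, averaged 4.14 ± 0.275 FPKM in TABS and 4.57 ± 0.328 in HA, and Kif2c, a microtubule depolymerase, 4.35 ± 0.318 in TABS and 3.97 ± 0.357 in HA. Spag5, the spindle protein astrin, averaged 4.40 ± 0.220 FPKM in TABS and 3.93 ± 0.347 in HA.

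Of the 8 genes of the midzone and cytokinesis none passed, with 3 positive and 5 negative differences and a median of -0.003. Kif20a, a motor needed for cytokinesis, had 14.6, 15.2, 17.04 and 16.1 FPKM in TABS, against 12.7, 14.8, 16.1 and 14.5 FPKM in HA (0.11 ± 0.07 SE, limma adjusted p = 0.376). Kif4, a chromosome-bound kinesin, had 2.08, 2.46, 2.63 and 2.68 FPKM in TABS, against 3.04, 2.62, 2.77 and 2.88 FPKM in HA (-0.15 ± 0.07 SE, limma adjusted p = 0.213). Both overlapped between the groups. Kif20b, another kinesin of cytokinesis, averaged 1.58 ± 0.244 FPKM in TABS and 2.02 ± 0.501 in HA, with HA 3 and HA 4 the highest.

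Prc1, which bundles midzone microtubules, averaged 4.14 ± 0.524 FPKM in TABS and 4.07 ± 0.421 in HA (mean ± SD of 4 libraries each). Anln, which encodes anillin of the contractile ring, averaged 6.68 ± 0.293 FPKM in TABS and 6.70 ± 0.387 in HA, and Ect2, the exchange factor that activates RhoA there, 3.70 ± 0.174 in TABS and 4.03 ± 0.285 in HA. Exons of Kif20a overlap those of Cdc23 on the opposite strand over 29.3% of their length, and those of Ube2c overlap Tnnc2 over 22.8% and those of Kif4 overlap Pdzd11 over 15.1%. The sources used here do not state whether counting used strand, so reads of such neighbours cannot be told apart, and the same holds for smaller overlaps of Cdc25c, Ccna2, Prc1, Plk1, Nek2, Cdca8, Ckap2l, Nusap1, Cdc25b and Cdc20. Foxm1 shares exon bases with Tex52 (2.50% of its exons) and Gm44596 (1.69%), and Top2a with a snoRNA gene (1.35%), on the same strand.

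The 3 partners of the anaphase-promoting complex had positive differences of 0.01 to 0.11, and none passed. Cdc20, its activator and the most abundant member, had 24.5, 23.3, 26.3 and 26.4 FPKM in TABS, against 25.6, 22.9, 25.1 and 23.1 FPKM in HA (0.05 ± 0.06 SE, limma adjusted p = 0.605). Ube2c, its ubiquitin-conjugating enzyme, had 12.8, 12.04, 13.97 and 14.4 FPKM in TABS, against 11.9, 12.2, 13.2 and 11.6 FPKM in HA (0.11 ± 0.06 SE, limma adjusted p = 0.336). Both overlapped between the groups. Pttg1, which encodes securin, averaged 12.9 ± 0.724 FPKM in TABS and 12.8 ± 1.0005 in HA (mean ± SD of 4 libraries each).

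Both chromosome proteins had negative differences that did not pass. Mki67, which encodes the proliferation antigen Ki-67, had 5.38, 5.46, 4.40 and 4.65 FPKM in TABS, against 5.63, 4.85, 6.33 and 6.50 FPKM in HA. HA 2 lay within the TABS range (-0.19 ± 0.09 SE, limma adjusted p = 0.239). Top2a, the topoisomerase that untangles sister chromatids, had 9.01, 8.66, 8.82 and 8.51 FPKM in TABS, against 9.09, 8.93, 10.1 and 11.2 FPKM in HA. HA 2 lay within the TABS range, HA 3 and HA 4 stood above both groups' other libraries, and the difference was -0.15 ± 0.07 (SE, limma adjusted p = 0.211).

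**Figure D3:**
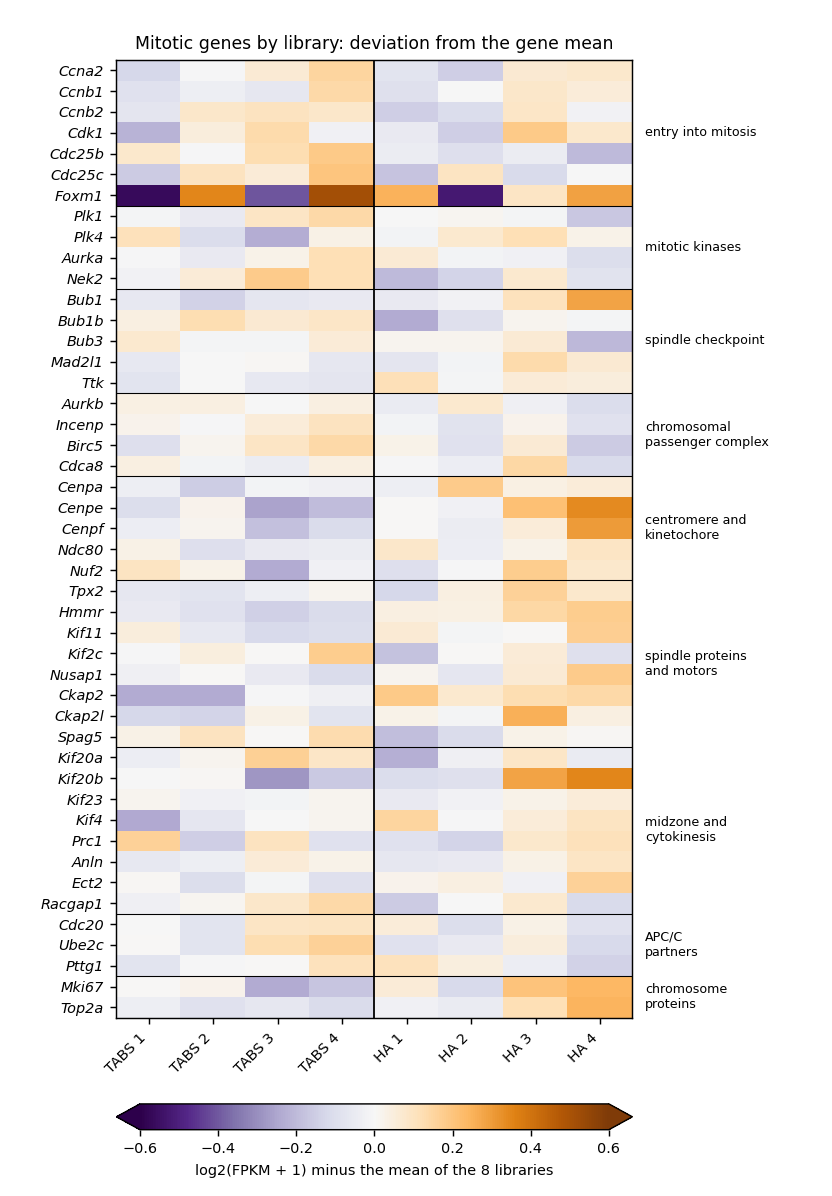
Deviation of log2(FPKM + 1) from the gene's mean over the 8 libraries for the 46 members (rows, by role) in TABS libraries (left of the line) and HA libraries (right of it). Orange is above and purple below the mean, and Foxm1 has the widest spread, with low and high libraries in both groups.

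Single libraries stood out across members. TABS 4 was the highest TABS library in 19 of the 46 members and the lowest in 3. HA 3 was the highest HA library in 19 and HA 4 in 16, while HA 1 was the lowest in 18 and HA 2 in 17. Mitochondrial genes took 10.2% to 12.2% of all FPKM in TABS libraries, against 12.1%, 12.1%, 13.8% and 14.5% in HA 1 to HA 4, and their part in the members' values was not tested.

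The direction of the members' differences went with base composition. Of the 15 tested members whose transcript had a GC content under 45%, 14 had a negative difference, Bub3 being the exception, with a median of -0.10. Of the 15 with 45% to 50%, 7 were positive and 8 negative, with a median of -0.003. Of the 14 with 50% or more, 13 were positive, Foxm1 being the exception, with a median of 0.09. The same order was found over all genes tested, of which 1974 of 2539 under 45% were negative and 3706 of 5750 of 50% or more were positive, with medians of -0.09 in 2539 genes under 45%, 0.007 in 2988 genes from 45% to 50% and 0.04 in 5750 genes of 50% or more.

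Across the 44 members, Spearman's rho between GC content and the difference was 0.70, and across 11277 genes tested it was 0.35. With transcript length rho was -0.42 across the members and 0.13 across all genes. Genes in these correlations share the same 8 libraries and are not independent replicates. After a loess fit on GC content and length was removed from each library, the relation over all genes was 0.02 for GC content and that across the members 0.43, with medians of -0.02, 0.006 and 0.06 in the 3 ranges. Of the members under 45%, 10 of 15 were then negative, and of those of 50% or more, 12 of 14 were positive. With length the relation across the members was then -0.43, and -0.009 over all genes. Ckap2 (GC content 42.7%) and Hmmr (41.8%) both lay in the lowest range, and their differences were -0.18 and -0.12 after the correction.

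**Figure D4:**
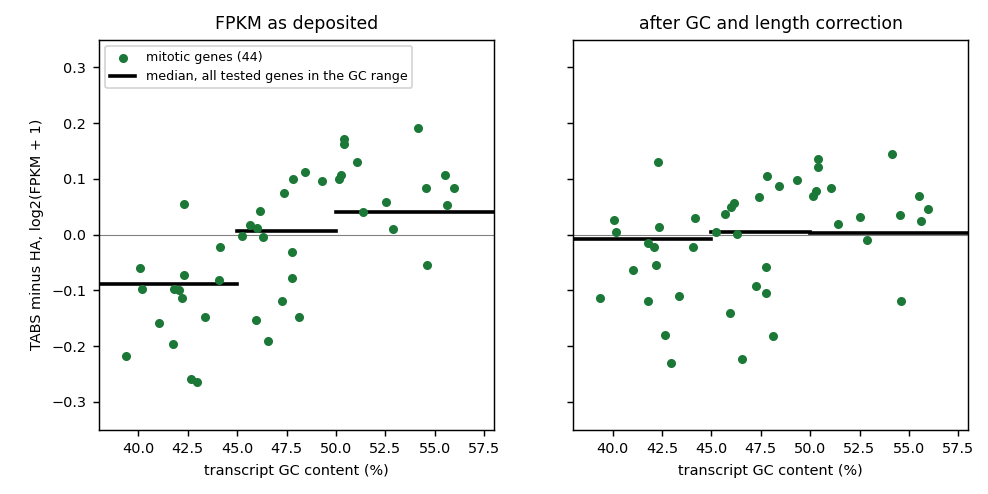
Difference between TABS and HA in log2(FPKM + 1) against transcript GC content for the 44 tested members (green points), for FPKM as deposited (left) and after GC and length correction (right). Black bars are medians of all genes tested under 45%, from 45% to 50% and of 50% or more. Left, 14 of 15 members under 45% lie below 0 and 13 of 14 members of 50% or more above it.

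Further genes of the mitotic machinery were compared in 6 lists. Of their 118 genes, 106 were tested and none passed limma's adjusted p of 0.05, beside 7.38% of all genes tested. An unadjusted p under 0.05 was found in 18, beside 24.1% of all genes tested, and the median difference was 0.01. By list, 27 genes of kinetochore and centromere, 16 of condensins and cohesin cleavage and 15 of spindle motors and cytokinesis were tested, along with 21 regulators of G2/M, 16 APC/C subunits and 11 of the DREAM and MuvB complexes. The medians ran from -0.08 for condensins and cohesin cleavage to 0.05 for spindle motors and cytokinesis. Of the 16 genes of condensins and cohesin cleavage, 7 had an unadjusted p under 0.05, again beside 24.1%. Negative among the 7 were Smc1a and Smc3 of the cohesin ring, its partner Stag2, and the condensin ATPases Smc2 and Smc4, with differences of -0.17 to -0.30 and limma adjusted p of 0.0912 to 0.203. Positive were the condensin subunit Ncapd2 (0.13, limma adjusted p = 0.144) and Espl1, which encodes separase (0.12, limma adjusted p = 0.203). The transcripts of the 5 negative genes had a GC content of 38.1% to 46.9%, and those of Ncapd2 and Espl1 54.03% and 56.1%. Mybl2, which encodes the B-MYB that joins MuvB, averaged 1.72 ± 0.0739 FPKM in TABS and 1.52 ± 0.123 in HA (mean ± SD of 4 libraries each, log2 difference 0.11 ± 0.05 SE, limma adjusted p = 0.247).

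Genes of earlier cell cycle phases were described for the proliferative state. Of 29 genes of DNA replication and G1/S, all tested, 1 was higher in TABS, 1 was lower and 27 did not pass. These counts stand beside 4.49% higher and 2.9% lower of all genes tested, and differences from those shares were not tested. Unadjusted p was under 0.05 in 9 of the 29, 6 positive and 3 negative, beside 24.1% of all genes tested. Cdt1, the factor that loads the replicative helicase, had 5.92, 6.49, 7.603 and 6.55 FPKM in TABS, against 5.75, 5.19, 5.30 and 5.01 FPKM in HA. It rose by 0.27 on the log2 scale without overlap (SE 0.07, limma adjusted p = 0.0481). Rrm1, the large subunit of ribonucleotide reductase, had 17.8, 20.5, 19.2 and 21.3 FPKM in TABS, against 22.7, 24.5, 25.6 and 26.4 FPKM in HA, and fell by 0.32 without overlap (SE 0.06, limma adjusted p = 0.0210). Of the 29 genes, 4 were higher and 2 lower in TABS without overlap, Cdt1 and Rrm1 among them. Over all genes tested, 10.8% were higher and 7.15% lower in TABS without overlap.

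Cdt1 kept its call without TABS 1 or HA 1 and lost it without any of the other 6 libraries (limma adjusted p 0.0902 to 0.105), with no filter (0.115) and under median-of-ratios scaling (0.0579). Rrm1 lost its call without TABS 1, TABS 3, HA 2, HA 3 or HA 4 (limma adjusted p 0.0501 to 0.0643) and with no filter (0.0593). Pcna, the sliding clamp, averaged 41.1 ± 2.57 FPKM in TABS and 42.6 ± 3.62 in HA (mean ± SD of 4 libraries each). The summed G1/S genes came to 282 ± 15.2 FPKM in TABS and 279 ± 9.87 in HA. The mitotic sum divided by the G1/S sum was 1.33, 1.32, 1.28 and 1.30 in TABS libraries, against 1.32, 1.28, 1.31 and 1.31 in HA libraries, so this ratio of transcripts overlapped between the groups. The share of cells in each phase was not measured.

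Of 16 D cyclins, CDK inhibitors and their partners, 13 were tested and none passed, beside 7.38% of all genes tested. Of the 13, 5 had an unadjusted p under 0.05, beside 24.1% of all genes tested. Ccnd3, Ccng2 and Cdkn2d were positive and Ccnd2 and Ccng1 negative, with limma adjusted p of 0.0907 to 0.187. Libraries did not overlap in 1 gene that was higher in TABS, Ccng2, and in 2 that were lower, Ccnd2 and Ccng1. Over all genes tested these shares were 10.8% and 7.15%. Cdkn1a, which encodes the inhibitor p21, had 94.4, 92.6, 90.95 and 95.01 FPKM in TABS, against 96.6, 89.8, 84.7 and 81.6 FPKM in HA, with HA 1 above all TABS libraries (0.08 ± 0.05 SE, limma adjusted p = 0.391). Ccnd1, the most abundant D-type cyclin here, averaged 97.8 ± 3.27 FPKM in TABS and 97.6 ± 2.96 in HA (mean ± SD of 4 libraries each). Cdkn2a and Cdkn2b were listed at 0 in every library.

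**Figure D5:**
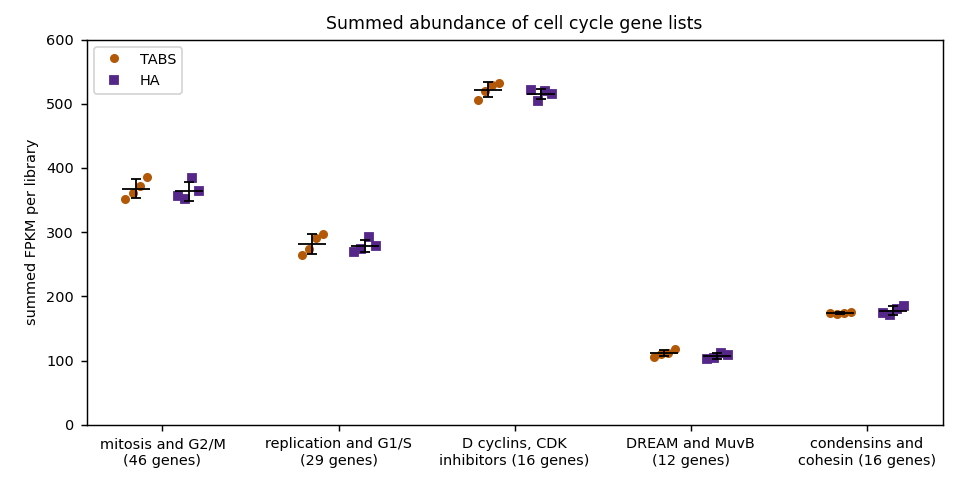
Summed FPKM per library for 5 cell cycle gene lists, with TABS (circles) left of HA (squares), the mean as a long bar and the SD (n = 4) as error bars. The mitotic sums lie between 351 and 386 FPKM and the 2 groups overlap in each list in summed FPKM. As a share of all FPKM, the D cyclins and CDK inhibitors were higher in TABS without overlap, but barely. Their lowest TABS share was 0.16461% (TABS 1) and their highest HA share 0.16457% (HA 4). Of the lists not drawn, the spindle checkpoint genes and the G2/M regulators were also higher in TABS without overlap by this share.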

How the data were processed

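RNA of 8 MC3T3-E1 samples (4 with TABS, 4 with HA, day 3) was extracted with TRIzol and sequenced as paired reads of 150 bases from NEBNext Ultra libraries on a NovaSeq instrument, per the labels' protocols. The deposited values are FPKM per gene, made by the authors. The submitters' processing notes name fastp, STAR, DESeq2 and the build GRCm38. The sources used here do not state their roles and versions, which annotation was used, or whether counting used strand.

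Columns were assigned to libraries by the library names in the labels. Of 55335 identifiers, 55154 matched the GENCODE vM21 annotation of GRCm38, which gave symbols, coordinates, length and GC content (longest protein-coding transcript), and 27134 were at 0 in every library. Genes with at least 1 FPKM in at least 4 libraries (11280) were transformed to log2(FPKM + 1) and compared by limma (version 3.58.1, R 4.3.3) with trended moderated variances and no block. Tests were two-sided with p adjusted by Benjamini-Hochberg over all genes tested and a threshold of 0.05. Differences are TABS minus HA on that scale, which understates changes of low genes. FPKM are not counts. Low FPKM values of longer single-exon genes with a single transcript were multiplied by transcript length. Per library, 23.9% to 37.4% of the products were whole multiples of a common step, within 0.02 of a step. Most products were not, so reads were not recovered, no count test was run and no counting interval is given. The script was tested on simulated data. Promoters came from RefSeq (GRCm38.p6), none was printed from chromosome 18, and a gene counted where any of its starts held the motif.

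The members and lists were chosen with earlier results of these data known. Per-library values are given for members that passed, and in each role group for the member with the highest mean and that with the smallest p. Those of Foxm1, Mki67, Bub1, Ttk and Cenpf were added after their values were seen. The 7 named genes of condensins and cohesin cleavage were also added then. The same holds for Mybl2, Pcna, Cdkn1a, Ccnd1, Ccnd2, Ccnd3, Ccng1, Ccng2, Mis12, Arpp19, Cdkn2a, Cdkn2b, Cdkn2c and Cdkn2d from the other lists. Alternatives were a pseudocount of 0.1, no filter, a filter of 5 FPKM, TPM, median-of-ratios scaling, a per-library loess correction for GC content and length, the replicate number as a block, robust variances and leaving out each library.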

Additional observations from a re-analysis of the deposited data

Results flagged for a closer look

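The 46 members give 92 groups of 4 libraries, and with the summed levels of the members 94 groups were checked for a library far from the other 3. In 4 of them the gap between the extreme library and its nearest neighbour, divided by the group's range, was above Dixon's 95% critical value, and chance alone flags about 1 in 20 groups. Ccnb2 was at 18.9 FPKM in TABS 1, while the other TABS libraries held 21.2 to 21.5. Plk1 was at 18.3 FPKM in HA 4, against 20.5 to 20.8 in the other HA libraries. Aurkb was at 5.71 FPKM in TABS 3, with the other TABS libraries between 5.89 and 5.92. Cenpa was at 4.09 FPKM in TABS 2, the others lying between 4.51 and 4.59. The 4 values came from 4 different libraries, and none of the 4 genes passed the test between the scaffolds.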

How the results depend on the processing

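The number of genes that differed, 833, was 542 with no filter, 230 with the replicate number as a block, 338 with the block and GC correction together, and 415 to 718 without 1 library. Members lower in TABS, 2 in all, were 0 with no filter, after rescaling to TPM, with the block and with the block and GC correction, with limma adjusted p under the block of 0.106 (Ckap2) and 0.163 (Hmmr), 1 with a filter of 5 FPKM (Ckap2) and 1 after GC correction (Cenpe), and 0 to 1 without 1 library. Members higher were 1 under TPM (Cdc25b) and 0 in every other fit run. Genes of the other lists that were higher, 1, were 0 with no filter, median-of-ratios scaling, the block (Cdt1, limma adjusted p = 0.132) or the block and GC correction (0.107), 5 under TPM, 5 after GC correction, and 0 to 3 without 1 library. Those lower, 1, were 0 with no filter, 3 after GC correction, 2 with the block and GC correction, and 0 to 2 without 1 library. The share of members with a CHR was 35.9% upstream of the start only. Signs turned, always without a call, in Ccnb1 (0.0145), Cdk1 (0.00657), Kif23 (0.0302) and Anln (0.0355) under TPM. After GC correction, with or without the block, they turned in Ccnb1 (0.0301), Mad2l1 (0.0259), Nuf2 (0.0141), Kif23 (0.00166), Anln (0.00554), Ect2 (0.00453) and Cdca8 (-0.00993). Without 1 library, differences ran from -0.0731 to 0.00279 in Ccnb1, -0.0857 to 0.0359 in Cdk1, -0.237 to 0.126 in Foxm1, -0.0278 to 0.0591 in Cdca8 and -0.0347 to 0.0684 in Prc1. They ran from -0.0241 to 0.0266 in Anln, -0.0217 to 0.0133 in Kif23, -0.0012 to 0.0922 in Ccna2, -0.0317 to 0.0492 in Pttg1 and -0.00308 to 0.0861 in Bub3. The cause of these changes was not tested. Same-numbered libraries correlated at only 0.105, 0.0496, -0.104 and -0.0576, and only TABS 1 matched its own number best, so the numbers were not taken to pair the libraries. With the depth unknown, low members such as Ttk and Cenpf could not be given a counting error.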

Other observations

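A few cell cycle genes fell into separate levels among libraries of the same scaffold, as seen on inspection of the values. Ccnd3, a D-type cyclin, had 16.8 FPKM in both TABS 2 and TABS 4, with 7.36 in TABS 1 and 7.72 in TABS 3, against 6.66 to 7.72 FPKM in HA. The same pair of TABS libraries was the higher one for Foxm1. Mis12, a kinetochore gene, had 6.26 and 6.48 FPKM in TABS 2 and TABS 4 but 1.16 in TABS 1 and 2.86 in TABS 3, against 6.28 to 8.39 FPKM in HA. Arpp19, which encodes an inhibitor of the phosphatase PP2A, lay the other way, at 5.37 and 5.43 FPKM in TABS 2 and TABS 4 and 8.003 and 8.12 in TABS 1 and TABS 3, against 5.87, 5.39, 2.26 and 1.78 FPKM in HA.

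Cdkn2c, which encodes the CDK inhibitor p18, was highest in the third library of each group, at 50.2 FPKM in TABS 3 and 46.3 FPKM in HA 3, while the other libraries held 32.3 to 36.6 FPKM in TABS and 29.1 to 33.0 FPKM in HA. None of these genes passed the test between the scaffolds, and what sets these levels was not tested.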
